A study of Mus musculus with 132 samples.

Results

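The Obox genes encode homeodomain proteins made in the mouse oocyte and early embryo. All 7 rows of the gene table with the names Obox1, Obox2, Obox3, Obox5, Obox6, Obox7 and Obox8 were taken as the family, out of 32245 genes in all. Each was measured in every single cell of the series by Smart-seq2, a full-length polyA RNA protocol without molecular identifiers. The cells came from 4 groups, which were 30 control and 24 mimic cells of 8-cell embryos (embryonic day 2.5) and 39 control and 39 mimic cells of 32-cell embryos (embryonic day 3.5). Embryos of C57BL/6 x DBA F1 mice were cultured in KSOM from the 2-cell stage in all 4 groups. The mimic groups received a synthetic copy of miR-381-3p in the medium, and the control groups a scrambled mimic. The mimic was used at 5 or 10 µM, the dose of single cells was not given, and the study's text ties the higher dose to the 8-cell embryos, so dose and stage cannot be told apart in the mimic cells.

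A homeodomain is a DNA-binding fold of 3 helices, the last of which lies in the major groove. The Obox proteins belong to the class that includes Crx and Otx2, in which a lysine of that helix favours the DNA motif GGATTA. Transcripts of Obox1, Obox2, Obox5 and Obox7 are stored in the oocyte, Obox3 is switched on when the embryonic genome awakens, and together these genes help to open that genome. Obox6 has been studied as a factor that aids reprogramming of fibroblasts.

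The 7 genes lie in 1 cluster on mouse chromosome 7 (GRCm38, GENCODE M21), next to the related genes Crx and Crxos. Obox8 has the lowest coordinates, at chr7:14331436-14333557 on the minus strand, and Obox6 the highest of the 7, at chr7:15833241-15839678 on the minus strand. Both of these genes have 3 exons and 1 annotated transcript. The coding sequences of Obox1, Obox2, Obox3, Obox5 and Obox7 were 92.9% to 98.5% identical to each other over the aligned bases. Obox6 was 76.6% to 81.1% identical to those 5, and Obox8 was 63.9% to 69.4% identical to the other members. The 81 bases around the third helix show the divergence of the 2 abundant members from the rest. The capitals mark the 18 bases that encode the helix signature with its lysine codon, AAG, as the third codon.
Obox5: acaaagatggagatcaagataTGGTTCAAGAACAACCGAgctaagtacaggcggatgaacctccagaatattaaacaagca
Obox6: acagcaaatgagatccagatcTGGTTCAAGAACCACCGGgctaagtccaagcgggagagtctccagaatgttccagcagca
Obox8: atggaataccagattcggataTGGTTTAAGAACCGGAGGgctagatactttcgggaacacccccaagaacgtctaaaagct

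Within this stretch Obox6 differed from Obox5 at 20 bases and Obox8 differed from Obox5 at 36, whereas Obox7 differed from Obox5 at 2. The lysine codon was present in 6 members, and the longest annotated transcript of Obox2 did not hold the signature. The likeness of the 5 close members bears on how far their reads can be told apart. Of all 50-base windows of the longest transcript, 40.7% of Obox1, 37.0% of Obox2, 67.3% of Obox3, 86.98% of Obox5 and 79.8% of Obox7 occurred in no other gene. The values of Obox1 and Obox2 were therefore the least certain. For Obox6 the share was 94.98%, with 0 windows shared with another member, and for Obox8 it was 100%.

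The treatment oligonucleotide copies miR-381-3p, a miRNA of the cluster on chromosome 12 (GRCm38.p6, chr12:109726870-109726891, plus strand, RefSeq). Its seed, bases 2 to 8, is in capitals in the first line below. Obox8 was the one member whose annotated 3′ UTR held a match to 6 or more bases of that seed, a 7-base site that pairs with seed bases 2 to 7 and ends in A. The site starts at base 1112 of the transcript, 447 bases after the stop codon, and is shown in capitals in the second line. Such a site was found in 15.4% of 20945 annotated 3′ UTRs. The whole Obox6 transcript held no match to the seed, and Obox1, Obox2 and Obox7 each held 1 match of 6 bases, in their coding sequence.
mmu-miR-381-3p: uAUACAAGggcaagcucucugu
Obox8 3′ UTR: cctcttgtttaTTGTATAtttaactttgg

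Cells held 544866 to 3461022 counts each (median 1260663) and 3243 to 8983 genes. The lowest number of genes was 6373 in 8-cell control and 3243 in 8-cell mimic cells. In 32-cell control and mimic cells it was 5988 and 5919. The part of the low number in the Obox values of 8-cell mimic cells was not tested. Levels are given as CPM, counts per 1000000 counts outside mitochondrial genes, pooled over the cells of a group. No label tied a cell to an embryo, and each group came from 3 to 5 embryos, so a group counts as a single sample. The groups were compared by their values without a test, and intervals of 95% cover counting error only. The title suffix went with the stage, so a batch between the stages cannot be told apart from stage. No label names a plate. Within a stage the cell numbers form blocks of 1 treatment, here called runs, some of which follow each other directly, and values are given by run where they differ. At the 32-cell stage Xist exceeded the summed Y-linked counts in 0 of 39 control and 39 of 39 mimic cells, which means that treatment there cannot be told apart from the sex of the embryos. At the 8-cell stage it did so in 23 of 30 control and 14 of 24 mimic cells. The 9 trophectoderm markers summed to 363 and 485 CPM in 8-cell control and mimic cells and to 5939 and 5759 CPM in 32-cell control and mimic cells, the 9 markers of the inner cell mass (ICM) to 2145 and 1444 CPM and to 1465 and 1172 CPM in the same groups, and 6 cumulus cell markers summed to at most 0.0817 CPM in any group.

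Obox6 was the dominant member of the family in 8-cell embryos. Control cells held 70392 Obox6 counts, or 1916 CPM (95% interval 1902 to 1930), and mimic cells held 51640 counts, or 1671 CPM (1656 to 1685). Single control cells ranged from 1268 to 2954 CPM with a median of 1841, and mimic cells from 548 to 3124 CPM with a median of 1657. All 54 cells had counts, and the groups overlapped over most of their range. Obox6 made up 87.2% of the family's counts in control cells and 92.8% in mimic cells. Per kb of transcript its level was 1426 CPM without and 1243 CPM with the mimic, rank 16 of 15269 and rank 17 of 14590 genes with a count. Its coefficient of variation over control cells was 21.3%, beside a median of 27.9% over genes with a mean within 2-fold of its own. In mimic cells it was 36.2%, beside a median of 32.0% over such genes.

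Obox8 came next, at 275 CPM (270 to 281) in 8-cell control cells and 123 CPM (119 to 127) in 8-cell mimic cells. Per kb of transcript this was 236 and 105.5 CPM, rank 270 of 15269 and rank 774 of 14590 genes. Control cells ranged from 28.5 to 568 CPM with a median of 251, and all 30 had counts. Mimic cells ranged from 0 to 378 CPM with a median of 96.5, and 22 of 24 had counts. Obox8 varied more between cells than Obox6, with a coefficient of variation of 65% over control and 76.8% over mimic cells. Genes of like mean had medians of 53.7% (1570 genes) and 82.3% (2506 genes) in these groups, so the spread of Obox8 lay on either side of that of its peers.

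The other 5 members together gave 203 counts in 8-cell control and 192 counts in 8-cell mimic cells, or 0.252% and 0.345% of the family's counts. These are the members known from the oocyte and from genome activation, and each was seen in few cells. Obox5 stood at 3.27 CPM over the controls (counts in 4 of 30 cells) and at 3.69 CPM over the mimic cells (2 of 24). Its highest cells reached 69.7 CPM in controls and 66 CPM among mimic cells, so a single cell gave most of the counts in either group. Obox7 was found in 2 mimic cells, at 31.9 and 35.8 CPM, and had 0 counts over the 30 control cells, which allows up to 0.0817 CPM. Obox2 was found in 4 control cells at 4.91 to 27.6 CPM, Obox1 in 1 control cell at 11.3 CPM and Obox3 in 1 control cell at 1.99 CPM. In mimic cells of 8-cell embryos Obox1, Obox2 and Obox3 had 0 counts, which allows up to 0.0971 CPM. A cell with counts of 1 of these 5 members had none of the other 4 in 10 of 10 control and 4 of 4 mimic cells. Since these members share long identical stretches, counts of one may hold reads of another.

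**Figure D1:**
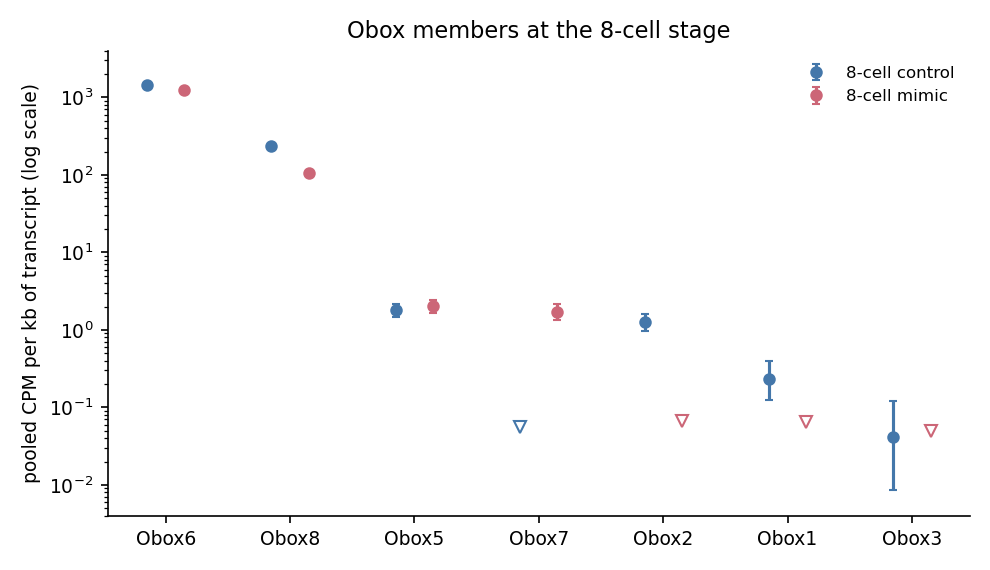
Pooled level of each Obox member in 8-cell embryos, as CPM per kb of the longest annotated transcript on a log axis, in control (blue) and mimic (red) cells. Bars are 95% counting intervals, and open triangles mark members with 0 counts, drawn at the level that 3 counts would give. Obox6 stands highest at 1426 and 1243, Obox8 follows at 236 and 105.5, and the other members lie at 2.01 or below.

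From the 8-cell to the 32-cell stage the family was nearly lost in control embryos. Pooled Obox6 was 1916 CPM in 8-cell control cells and 7.77 CPM (7.06 to 8.53) in 32-cell control cells, a 247-fold lower level (counting interval 225 to 271). This value hung on the run of cells, since the log2 change of -7.77 became -6.65 without 1 control run of 32-cell embryos (24 cells) and -10.06 without the other (15 cells). The lowest 8-cell control cell stood at 1268 CPM and the highest 32-cell control cell at 86.3 CPM, so the cells did not overlap. Obox8 had 0 counts over all 39 cells of 32-cell control embryos, which allows up to 0.0527 CPM, and was at least 5217-fold lower, taking 3 counts over the group as the floor. Its lowest 8-cell control cell held 28.5 CPM, so its cells did not overlap either. On the log2(CPM + 1) scale Obox8 fell by 8.11 and Obox6 fell by 7.77, rank 2 and rank 3 among the falls of 7469 genes with 20 CPM or more in either group.

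Both members that reached 20 CPM were thus 2-fold or more lower in control embryos, and 5 of the 7 stayed below 20 CPM. Both had reached that level through the 8-cell cells alone, so this count is a description. Of the 7469 genes, 20.1% were 2-fold or more lower on the log2(CPM + 1) scale, and 0.576% were lower with no overlap between cells. Obox1, Obox2, Obox3, Obox5 and Obox7 had 0 counts in all 78 cells of 32-cell embryos.

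In mimic-treated embryos Obox6 also fell, but it stayed at a measurable level in more cells. It was 1671 CPM in 8-cell and 44.1 CPM (42.3 to 45.9) in 32-cell mimic cells, a 37.9-fold lower level (36.4 to 39.5). The highest 32-cell mimic cell, at 273 CPM, lay below the lowest 8-cell mimic cell, at 548 CPM. Obox8 had 0 counts over the 39 cells of 32-cell mimic embryos, which allows up to 0.0563 CPM, and was at least 2186-fold lower. Its cells were not fully apart, since 2 of the 24 mimic cells at the 8-cell stage also had 0 counts. Both members at 20 CPM or more were 2-fold or more lower, beside 18.8% of 7594 genes, and 1 of the 2 was lower with no overlap between cells, beside 0.25% of genes. Here Obox8 had reached 20 CPM through the 8-cell cells alone, so this count is a description. Among the falls of those 7594 genes Obox8 was rank 2 and Obox6 rank 18. The 247-fold and 37.9-fold values are given side by side, and the difference between them was not tested.

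**Figure D2:**
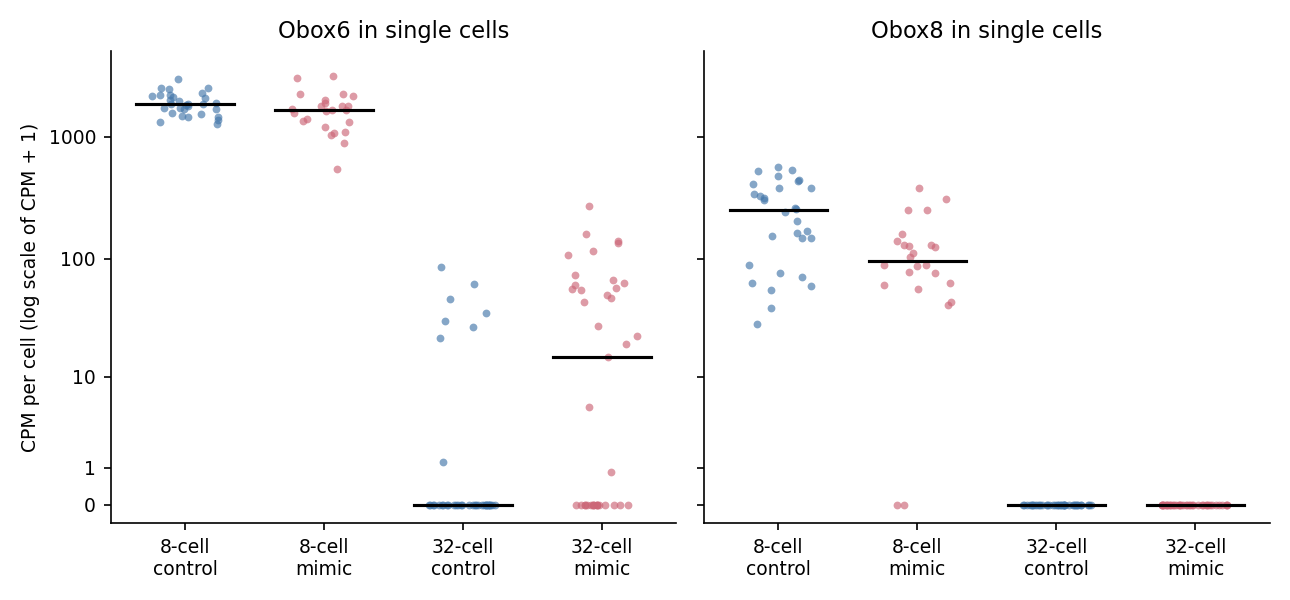
Level of Obox6 (left) and Obox8 (right) in each single cell, as CPM on a log scale of CPM + 1, by stage and treatment. Each point is a cell and each black line the median of its group. Obox6 lies at 548 CPM or above in the 54 cells of 8-cell embryos and at 273 CPM or below in the 78 cells of 32-cell embryos, and Obox8 is at 0 in the latter.

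Between mimic and control cells of 8-cell embryos, Obox8 differed more than Obox6. Pooled Obox8 was 123 CPM with the mimic and 275 CPM without it, a ratio of 0.448 (counting interval 0.431 to 0.465) and a log2 change of -1.15. Against the control run of 2 cells alone, whose numbers follow those of the mimic cells, the log2 change was -0.74 and below 2-fold. Control cells began at 28.5 CPM and mimic cells at 0, and the control median of 251 CPM lay within the mimic range. The ranges overlapped in part, with 9 of 30 control cells above the highest mimic cell and 2 of 24 mimic cells below the lowest control cell. Obox6 had a ratio of 0.872 (0.862 to 0.882), or -0.20 on the log2(CPM + 1) scale. The 9 ICM markers, at 2145 CPM without and 1444 CPM with the mimic, were also lower in the pooled mimic cells, and their part in the Obox8 value was not tested. The narrow counting intervals do not hold the variation between embryos, which could not be measured. Of 6570 genes at 20 CPM or more, 6.09% were 2-fold or more lower in mimic cells, and 1 of the 2 members at that level was among them. The summed family stood at 1800 CPM with and 2197 CPM without the mimic, a log2 change of -0.29.

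The level of Obox8 in 8-cell embryos also differed between cells with more Xist and cells with more Y-linked counts. In control cells it was 225 CPM over the 23 cells with Xist above the Y-linked counts and 393 CPM over the other 7. In mimic cells it was 110 CPM over 14 cells and 145.9 CPM over 10. Those 7 control cells form a single stretch of cell numbers, from 9 to 16, so their level cannot be told apart from that of a stretch or embryo. Obox8 was lower in mimic cells in both sets, with log2 changes of -1.02 and -1.42, the latter computed after the data had been seen. Obox6 was 1898 and 1959 CPM in the 2 sets of control cells and 1559 and 1867 CPM in the 2 sets of mimic cells. The part of embryo sex in the difference between the treatments was not tested beyond these values.

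The 7-base site of Obox8 was also counted over the other genes. At the 8-cell stage 76 of 1274 such genes were 2-fold or more lower in mimic cells (5.97%), and 307 of 5132 genes without the site were (5.98%). Their median log2 changes were 0.02 and 0.03. Whether the site in Obox8 bears on its level was not tested.

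Obox6 and Obox8 were weakly related from cell to cell. Over 54 cells of 8-cell embryos Pearson's r of their log2(CPM + 1) values was 0.45, with 0.14 over the 30 control cells and 0.49 over the 24 mimic cells. Both mimic cells without Obox8 counts lay below the mimic median of Obox6. The cells share depth, treatment and embryos, so the r is a description of these libraries. Correlation with the total count of the cell was 0.11 for Obox6 and 0.20 for Obox8 over all 54 cells. Over the control cells these were 0.29 and 0.38, both above the 0.14 between the members there, and over the mimic cells they were 0.06 and 0.20.

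**Figure D3:**
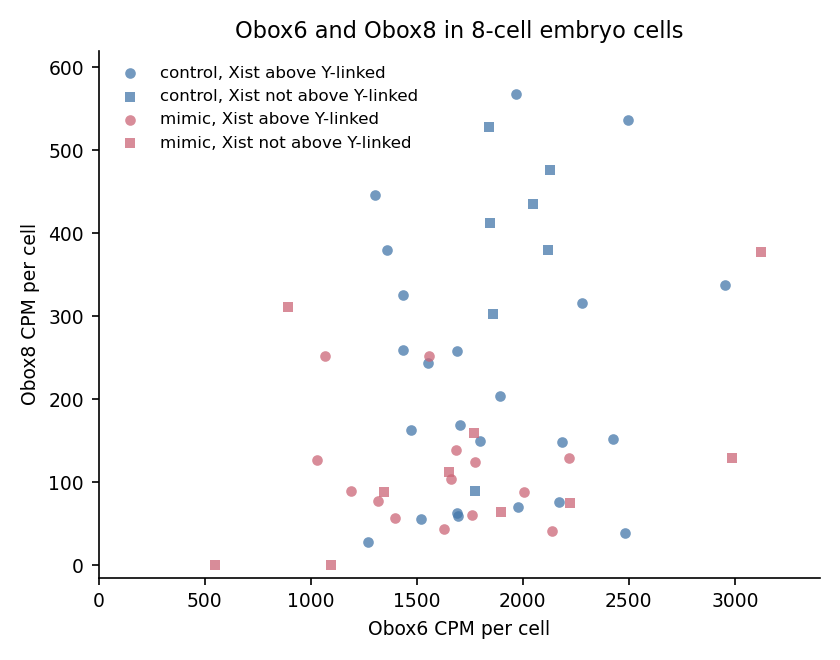
Obox6 (horizontal axis, CPM) against Obox8 (vertical axis, CPM) in each of the 54 cells of 8-cell embryos, coloured by treatment, with circles for cells with Xist above the Y-linked counts and squares for the others. Mimic cells (red) lie mostly below 200 CPM of Obox8, and control cells (blue) spread up to 568 CPM, while the 2 colours overlap along the axis of Obox6.

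At the 32-cell stage Obox6 was the one member left. It was found in 8 of 39 control cells (20.5%, exact binomial 95% interval 9.30% to 36.5%) and in 22 of 39 mimic cells (56.4%, 39.6% to 72.2%). Control cells ranged from 0 to 86.3 CPM with a median of 0, and mimic cells from 0 to 273 CPM with a median of 14.9. The groups overlapped, and cells without a count were found in both. Pooled Obox6 was 7.77 CPM without and 44.1 CPM with the mimic, a ratio of 5.67 (5.12 to 6.29) and a log2 change of 2.36. Of 7307 genes at 20 CPM or more, 6.87% were 2-fold or more higher in mimic cells, and Obox6 ranked 71 among the rises. Obox6 had reached 20 CPM through the mimic cells alone, so its call and rank are a description. With each cell thinned to 522178 counts, 7 control and 21 mimic cells still held a count. Median totals outside mitochondrial genes were 1297666 counts per control and 1179314 per mimic cell.

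The level of Obox6 also differed between runs of consecutive cell numbers. The control cells form runs of 24 and 15 cells, and the mimic cells runs of 18, 12 and 9 cells. The control run of 24 cells held 27 counts in 1 cell, 0.793 CPM (0.523 to 1.15), and the control run of 15 cells held 415 counts in 7 cells, 18.2 CPM (16.4 to 19.99). The mimic run of 18 cells stood at 41.9 CPM (39.1 to 44.8) with counts in 11 cells. The mimic run of 12 cells stood at 22.7 CPM (20.5 to 25) with counts in 5 cells, and that of 9 cells at 70.05 CPM (66 to 74.3) with counts in 6. Both control runs lay below the 3 mimic runs, and the higher control run and the lowest mimic run had counting intervals less than 1 CPM apart. The log2 change was 1.23 against the control run of 15 cells alone and 4.65 against the run of 24 cells alone. The control run of 15 cells stands in the cell numbers between the mimic runs of 12 and 9 cells, with single numbers missing, and within this series Obox6 was 45.4 CPM over 21 mimic and 18.2 CPM over 15 control cells, a log2 change of 1.28 that was computed after the data had been seen. A single mimic cell of the run of 9 held 25.5% of the group's Obox6 counts, and without it the log2 change was 2.01.

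The rest of the family gave a measure beside these counts. In 8-cell mimic cells there were 7.37 Obox8 counts for every 100 of Obox6, and in 8-cell control cells 14.4. At the first ratio the 2346 Obox6 counts of 32-cell mimic cells would stand beside 173 Obox8 counts, and 0 were found. In 32-cell control cells, with 442 Obox6 counts, the second ratio would give 63.5, and 0 were found. Obox6 counts of 32-cell cells thus did not come with Obox8 counts in the proportion of 8-cell cells.

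**Figure D4:**
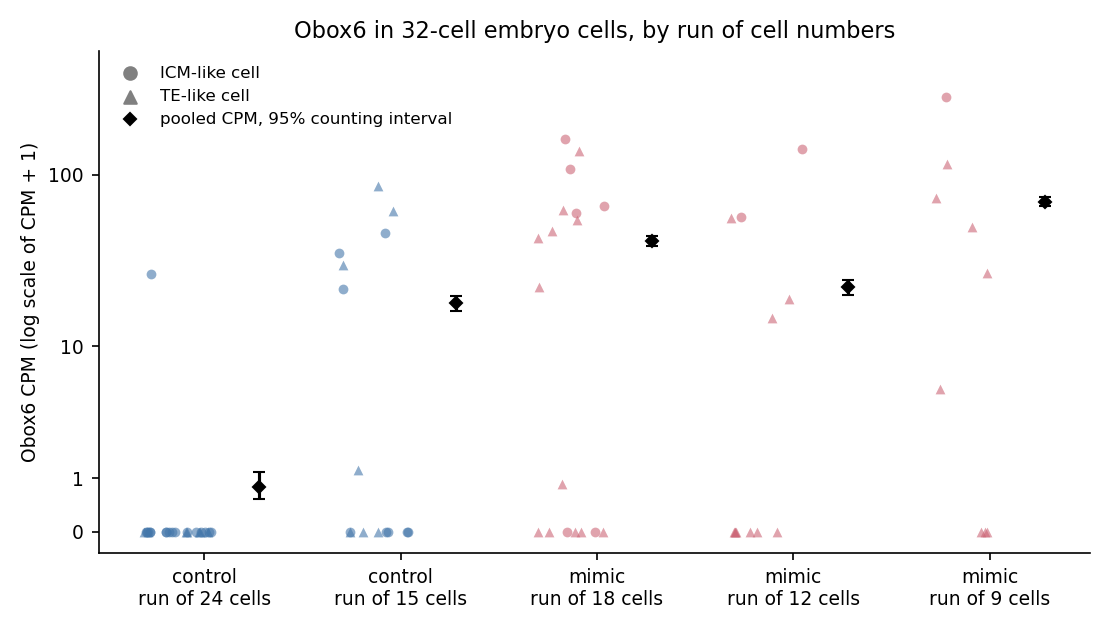
Obox6 in the 78 cells of 32-cell embryos, as CPM on a log scale of CPM + 1, by run of consecutive cell numbers in control (blue) and mimic (red) embryos. Circles are ICM-like and triangles TE-like cells, and black diamonds give the pooled CPM of the run with its 95% counting interval. Pooled levels go from 0.793 CPM in the control run of 24 cells to 70.05 CPM in the mimic run of 9 cells.

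By 32 cells the embryo has begun to separate the inner cell mass (ICM), which gives the embryo proper, from the trophectoderm (TE), which gives the placenta. Cells were put into classes by clustering genes that excluded the Obox family. An ICM-like cluster of 34 cells had higher means than the other 32-cell cells for 8 of 9 ICM markers and 0 of 9 TE markers, and a TE-like cluster of 44 cells for 9 of 9 TE markers and 1 of 9 ICM markers. Tdgf1 and Fgf4 were among the 10 genes with the largest fold in the ICM-like cluster, and no marker of either list was among those of the TE-like cluster. The ICM-like cluster held 25 control and 9 mimic cells, and the TE-like cluster 14 control and 30 mimic cells. These sizes depended on the method. Clusters on all genes gave 25 control and 13 mimic ICM-like cells, and a marker score gave 6 control and 4 mimic ICM-like cells.

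Obox6 was highest in the ICM-like mimic cells. It was found in 7 of the 9 cells and pooled to 111.9 CPM (105.8 to 118.2), with single cells from 0 to 273 CPM and a median of 66.7. In ICM-like control cells it was found in 4 of 25 cells and pooled to 5.90 CPM (5.09 to 6.79), with single cells from 0 to 46.6 CPM. The ratio was 19 (16.3 to 22.2) and the log2 change 4.03, beside 11.5% of 7399 genes that were 2-fold or more higher. Since the ICM-like mimic cells alone took Obox6 past 20 CPM, its call is a description. The log2 change was 3.42 without the mimic cell that held 47.7% of the counts of its class. With the marker score it was 4.82, from 4 mimic cells of which 2 had counts. Within the number series of both treatments it was 3.57, from 3 mimic and 8 control cells. It was 2.99 without the control run of 24 cells and 5.59 without the control run of 15 cells.

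In TE-like cells the difference was smaller and did not hold across runs. Obox6 pooled to 25.9 CPM (24.4 to 27.5) over 30 mimic cells, 15 of which had counts, and to 10.3 CPM (9.04 to 11.6) over 14 control cells, 4 of which had counts. Mimic cells ranged from 0 to 135 CPM and control cells from 0 to 86.3 CPM. The log2 change was 1.26, beside 12% of 7331 genes that were 2-fold or more higher. Since the TE-like mimic cells alone took Obox6 past 20 CPM, its call is a description. Without the control run of 24 cells the log2 change was 0.10, and without the control run of 15 cells it was 4.75. By run, TE-like mimic cells stood at 31.3, 9.71 and 37.4 CPM (runs of 18, 12 and 9 cells) and TE-like control cells at 0 CPM (run of 24 cells, in 7 TE-like cells) and 24.1 CPM (run of 15 cells). Within the number series of both treatments the direction turned, with 23.2 CPM over 18 mimic and 24.1 CPM over 7 control cells and a log2 change of -0.051. It was 0.93 without the mimic run of 9 cells, 0.94 without a single mimic cell and 0.96 with classes from clusters on all genes, and so was below 2-fold in each. Without the control cell that held 44.8% of the counts of its class it was 1.95. Pooled TE-like mimic cells also held less TE and more ICM marker RNA than pooled TE-like control cells, with overlap between cells. The 9 TE markers summed to 6895 CPM in them (858 to 14267 over cells) and to 10891 CPM in TE-like control cells (8931 to 12887), and the 9 ICM markers to 875 CPM (260 to 2360) and 550 CPM (283 to 896), with Fgf4 at 0 in the control cells. In ICM-like cells the TE markers summed to 1507 CPM with and 2238 CPM without the mimic, and the ICM markers to 2287 and 2149 CPM. The part of these markers in the Obox6 values was not tested. The other 6 members had 0 counts in both classes. Whether the difference between mimic and control cells was unlike in the 2 classes was not tested.

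The genes whose levels followed those of the abundant members from cell to cell were found by Pearson's r of log2(CPM + 1). Over the 54 cells of 8-cell embryos, among 6105 genes at 20 CPM or more, those most like Obox6 were Strn (r = 0.55), Mat2a (0.51), which makes S-adenosylmethionine, and Eef1e1 (0.50). Those most like Obox8 were Fam118a (0.65), Btg1 (0.56) and Zdhhc7 (0.56), a palmitoyltransferase. For Obox8 the r was lower in control than in mimic cells, at 0.37 and 0.70 for Fam118a and 0.24 and 0.76 for Btg1. Over the cells of both stages, among 6773 genes, the 5 genes most like Obox6 were Trim43c (0.86), Trim43b (0.86), Btbd18 (0.83), Impdh2 (0.83) and Hsd17b14 (0.83). Trim43c and Trim43b stood at 644 and 1383 CPM over the 8-cell and at 5.21 and 48.4 CPM over the 32-cell cells. Over both stages r also takes in the difference between the stages. Within the 8-cell groups Trim43c had r = 0.41 over control and -0.49 over mimic cells, and Trim43b 0.48 and 0.12. In the same order Btbd18 had 0.096 and -0.47, Impdh2 0.19 and 0.54, and Hsd17b14 0.047 and -0.26. These r describe cells that share libraries and embryos.

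Genes related to the family by structure or by time of use were described by list. Of 15 related homeobox genes 12 were in the table and 3 reached 20 CPM in the control embryos, where 0 were 2-fold lower and Otx2, a head patterning factor, was higher (0.03 CPM at the 8-cell and 23.6 CPM at the 32-cell stage), beside 20.1% of all genes that were lower and 30% that were higher. Otx2 had reached 20 CPM through the 32-cell control cells alone, so its calls are a description. In mimic embryos Otx2 stood at 0.74 and 0.41 CPM, and it was the 1 gene of the list that was 2-fold lower in 32-cell mimic than control cells, beside 5.36% of all genes. Otx2 was also among the 10 genes with the largest fold in the ICM-like cluster, which held 25 control and 9 mimic cells. The part of the classes in its value was not tested. Crxos, a neighbour of Obox6 on the chromosome, stood at 826 and 1301 CPM in 8-cell control and mimic cells and at 915 and 861 CPM in 32-cell control and mimic cells. Pou5f1, the pluripotency factor, stood between 263 and 339 CPM in all 4 groups. Both of these homeobox genes stayed within 2-fold between the stages under either treatment.

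Of 20 genes of the 2-cell activation programme 19 were in the table, and those of the Zscan4 family were at or near 0 in all groups. In control embryos 2 of them reached 20 CPM, both through the 8-cell cells alone, and the other 17 did not, so no share is drawn from them. Tdpoz4 stood at 42.2 and 0 CPM and Tdpoz1 at 33.8 and 0.40 CPM, with the earlier stage given first. In mimic embryos Tdpoz4 stood at 20.7 and 0 CPM and Tdpoz1 at 8.61 and 5.94 CPM.

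The factors that act after genome activation were mixed. In control embryos 4 of 9 were 2-fold lower at the 32-cell stage and 0 were higher, beside 20.1% of all genes that were lower. Their median log2 change was -0.89, beside 0.20 over all 7469 genes. In mimic embryos 6 of 9 were lower, beside 18.8% of all genes, with a median of -1.81 beside 0.20. Under either treatment some of the lower genes had reached 20 CPM through the 8-cell cells alone, so these counts and medians are a description. Tead4, the trophectoderm factor, stood at 644 and 79.6 CPM in control and at 503 and 66.7 CPM in mimic embryos. Klf5, a Krüppel-like factor, stood at 571 and 441 CPM in control and at 491 and 569 CPM in mimic embryos, within 2-fold in both. Gabpa, an ETS factor, stood at 413 and 232 CPM in control and at 423 and 194.97 CPM in mimic embryos, with log2 changes of -0.83 and -1.11 on either side of the 2-fold line. Nr5a2, an orphan nuclear receptor, stood at 312 and 127 CPM in control and at 367 and 73.2 CPM in mimic embryos, and was 2-fold lower in both.

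Of 14 oocyte transcripts 13 were in the table and 4 reached 20 CPM in control embryos, 3 through the 8-cell cells alone (Zp3, Padi6 and Zbed3, lower at the 32-cell stage) and Tcl1 through the 32-cell cells alone. Each had passed through the stage where it was high, so no share is drawn from them. Zp3, a protein of the egg coat, stood at 66.7 and 0.40 CPM in control and at 17.2 and 1.58 CPM in mimic embryos. Padi6, a protein of the oocyte's cytoplasmic lattices, stood at 56.8 and 2.85 CPM in control and at 49.7 and 5.22 CPM in mimic embryos. Tcl1 stood at 36.6 CPM in 32-cell control and 9.60 CPM in 32-cell mimic cells.

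The promoter windows of RefSeq (250 bases before and 50 after the start, GRCm38.p6) were given for Obox1, Obox2, Obox3, Obox5 and Obox7. The letters GGATTA, searched on both strands, occurred once in that of Obox3 and in none of the other 4, beside 7.06% of 32851 promoters of that length. The window of Obox3 was 56.9% to 81.5% identical to the other 4 over the aligned bases, and those 4 were 92.6% to 100% identical to each other. The 56.9% was for Obox2, whose window covers an earlier part of the shared sequence and aligned with Obox1 over 203 bases. Its 269 bases aligned with Obox3 were thus partly out of register, and that value does not measure how far the 2 promoters diverge. Obox6 and Obox8 were not among the windows used here.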

How the data were processed

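Single cells of mouse embryos were profiled by Smart-seq2. The table deposited by the authors gives RSEM (1.3.0) expected counts for each gene in each cell, from reads that STAR (2.5.1b) had aligned to mm10. All values were whole numbers. The filter of the study (3000 genes or more, under 10% mitochondrial counts) removed 0 of 132 cells, and 0 pairs of cells were identical. Counts were pooled over the cells of a group and divided by their total without 13 mitochondrial genes. RSEM shares reads between near-identical genes by estimate, which affects Obox1, Obox2, Obox3, Obox5 and Obox7. Changes are differences of log2(CPM + 1), with calls at 2-fold among genes that reached 20 CPM in a group compared. Intervals are exact Poisson, conditional binomial or Clopper-Pearson, at 95%, and cover counting error only. A count of 0 was given a limit of 3 counts.

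The labels name no embryo, so each group is 1 sample and no test between groups was run. Classes came from Seurat 5.3.0 (2000 variable genes, 25 components, odd-ranked genes without the Obox family). Alternatives were a pseudocount of 0.1, mitochondrial genes included, means over cells, thinning, TMM scaling (edgeR 4.0.16), single cells or runs left out, the number series with both treatments (added after seeing the data), sexes and other classes. Calls and intervals were checked on simulated data. The members, gene lists and tests were chosen with earlier results of these data known. Named genes were all 7 members, the most alike genes by Pearson's r (3 for each member at 100 CPM or more in 8-cell cells, 5 for Obox6 over all cells), and up to 4 of each list by level. Annotation was GENCODE M21, whose symbols matched all 7 members.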

Additional observations from a re-analysis of the deposited data

How the results depend on the processing

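Each group was 1 sample of cells from few embryos, and the values have counting error only. The depth of 544866 counts or more per cell limits what can be said of the 5 low members, and reads shared between near-identical members add to this. Stage cannot be told apart from a batch between the stages or, in mimic cells, from dose, and treatment at the 32-cell stage cannot be told apart from sex. No label names a plate, and its part was not tested. No paired analysis was possible because the numbers that groups share are cell numbers in the titles, and no result comes from a test. Of 315 alternative values over the family sum, the single members and the member counts, 2 changed the sign of a called change, both in TE-like cells (Obox6 and the family sum, which Obox6 alone makes up there). Of those on the family sum and the member counts, 31 stayed within the counting interval or within 1.5-fold of the count and 48 did not. Values below are log2 changes of the summed family. From the 8-cell to the 32-cell stage in controls the value was -7.97, and all 12 alternatives kept it 2-fold or more lower. It was -8.13 with a pseudocount of 0.1 and -10.04 as the mean over cells, and with cells or runs left out it went from -10.26 (without the control run of 15 cells at the 32-cell stage) to -6.84 (without that of 24). In mimic embryos the value was -5.32, and all 11 alternatives kept it lower. It was -7.57 as the mean over cells, -5.39 with thinned cells, -5.45 with TMM scaling and -5.22 with the 8-cell cells that had Xist above the Y-linked counts, and from -5.72 to -5.03 with cells or runs left out. Without a filter on low genes, 4 members in place of 2 were 2-fold or more lower at the 32-cell stage in controls, and 4 in place of 2 in mimic embryos. The members added were Obox2 (1.82 CPM in 8-cell cells) and Obox5 (3.27 CPM) in controls. In mimic embryos they were Obox5 (3.69 CPM) and Obox7 (2.52 CPM). No share over all genes is given without the filter, so these counts are a description. Between mimic and control cells of 8-cell embryos the value was -0.29. It was -0.31 as the mean over cells, -0.26 with thinned cells, -0.34 with Xist above and -0.23 with Xist not above the Y-linked counts (the last added after seeing the data), and from -0.37 to -0.25 with cells or runs left out. Obox8 alone stayed 2-fold or more lower except against the control run of 2 cells alone, where it was -0.74. Between mimic and control cells of 32-cell embryos the value was 2.36. It was 2.17 as the mean over cells and from 1.23 to 4.65 with cells or runs left out, and 1.28 within the number series that holds both treatments (added after seeing the data), and all 13 alternatives kept it 2-fold or more higher. In ICM-like cells it was 4.03, with 4.44 as the mean over cells, 4.82 with classes from marker scores, 3.57 within the number series and from 2.99 to 5.59 with cells or runs left out. In TE-like cells it was 1.26, with 1.86 with classes from marker scores, 0.96 with classes from clusters on all genes, -0.051 within the number series and from 0.10 to 4.75 with cells or runs left out. There 10 of 15 alternatives kept the value at 2-fold or more. The 5 that did not were the number series, where the direction turned for Obox6 and the family sum, the all-gene clusters and those without the control run of 24 cells, without the mimic run of 9 cells or without a single mimic cell, for which the cause was not tested.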
